A study of Mus musculus with 4 samples.

Results

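Ephrins, Eph receptors, semaphorins and plexins were followed by RNA sequencing in basal cells sorted from mouse mammary outgrowths. The members were the protein-coding genes whose symbols begin with Epha, Ephb, Efna, Efnb, Sema, Plxna, Plxnb, Plxnc or Plxnd and a digit, which gave 50 of the 34615 gene rows in each count file. They comprised 7 ephrins, 14 Eph receptors, 20 semaphorins and 9 plexins. Of 51 annotated genes that fit the rule, 1, Efnb3, was not analysed here. The study asked which genes differ in basal cells without miR-205, a microRNA of stratified and glandular epithelia.

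The KO group (2 libraries) came from miR-205fl/fl;RosamTmG/mTmG mammary cells and the WT group (2 libraries) from WT;RosamTmG/mTmG mammary cells. Cells of both groups received a Cre adenovirus (Ad-cre), which removes loxP-flanked alleles and turns the mTmG reporter from red to green. The hosts of the transplants were SCID-Beige mice, aged 3 weeks, which lack mature B and T cells but supply the stroma, vessels and nerves around each outgrowth. After 8 weeks, epithelial cells of a pool of 40 outgrowths were sorted for GFP, CD24 and high CD49f. Outgrowths were pooled, and no label says whether the 2 libraries of a genotype had separate pools or hosts, so p-values cover only the library-to-library spread, possibly a technical one. In bulk RNA, fewer cells of a type and less RNA per cell cannot be told apart.

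Eph receptors are the largest family of receptor tyrosine kinases, and they bind ephrins on the surface of a neighbouring cell. Ephrin-A proteins are held by a lipid anchor and ephrin-B proteins span the membrane, and signals run into both the receptor cell and the ligand cell, which sorts cells and sets boundaries between them. Semaphorins are secreted or membrane-bound guidance proteins that bind plexins, receptors whose intracellular part switches off small GTPases of the Ras family. Secreted class 3 semaphorins mostly need neuropilins as co-receptors. In the mammary gland, EphB4 and ephrin-B2 have been described in the layers of the ducts, and EphA2 in branching of the epithelium.

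Mature miR-205-5p, the microRNA deleted in KO cells, pairs with transcripts mainly through its seed (bases 2 to 8, in capitals). Members whose longest annotated 3' untranslated region (UTR) holds the matching bases ATGAAGG are shown with 24 bases around that site, the match in capitals. These are candidates for binding, and members with only a shorter match, or a match only in another transcript, are not shown. The microRNA sequence is RefSeq's (GRCm38.p6, chr1:193507503-193507524, minus strand) and the sites are from GENCODE M21 transcripts (GRCm38), 5' to 3' on the transcript.
mmu-miR-205-5p: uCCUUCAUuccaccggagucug
Ephb2 (chr4:136654890-136654913, minus strand): ggaacattaacATGAAGGgaagag
Plxna2, first site (chr1:194814637-194814660, plus strand): aaagaatgtagATGAAGGgagaag
Plxna2, second site (chr1:194816544-194816567, plus strand): tatgcaggcacATGAAGGccttga
Plxnd1 (chr6:115955503-115955526, minus strand): ccaactctaggATGAAGGccttga
Sema3d (chr5:12587059-12587082, plus strand): aaaaagcaaaaATGAAGGAacaat
Sema4c (chr1:36549108-36549131, minus strand): tctttggagctATGAAGGggaagg
Sema5a, first site (chr15:32689887-32689910, plus strand): taattcacagaATGAAGGtgtggc
Sema5a, second site (chr15:32693910-32693933, plus strand): aatcttataaaATGAAGGAaatgt

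Such a site was present in 6 of 50 members (12.0%), against 2036 of 18168 protein-coding genes whose 3' UTR is annotated (11.2%). A longer match that ends in A, the 8mer ATGAAGGA, was present in Sema3d and Sema5a, 4.0% of members against 4.1% of all these genes. These 8 sites share the 7 bases and differ in the stretch printed before them. The second Plxna2 site and the Plxnd1 site also share the bases printed after the match. A match is a description of the sequence and does not show binding. Members had longer 3' UTRs than all genes, with a median of 1501 bases against 994.

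Gene counts per library ran from 47953972 to 60030932, and a count of 0 allows up to 0.0719 CPM (counts scaled to a common library size), for counting error only. The deleted gene gave no check of the labels, because Mir205 had 0 counts in each library. Of the basal markers, 9 of 10 were analysed here (all except Krt14), none was at 0, and Acta2, smooth muscle actin, had 3707 and 2264 CPM in the KO libraries, against 2493 and 2331 CPM in the WT libraries. KO replicate 2 stood apart from the other libraries: 12679 genes had a count there, against 18897 in KO replicate 1 and 18139 and 18027 in WT. Across the 45 tested members, log2 values of KO replicate 2 had Pearson correlations of 0.829 to 0.844 with the other libraries, while KO replicate 1 had correlations of 0.980 and 0.967 with WT replicates 1 and 2, and the WT pair had 0.950. These correlations are across genes, which are not independent replicates, and are descriptions. Every difference below is therefore given for both KO libraries, with replicate 1 first.

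The data show no Eph, ephrin, semaphorin or plexin gene that passed the test between KO and WT. Of 45 tested members, 0 passed the edgeR quasi-likelihood test at a Benjamini-Hochberg adjusted p under 0.05 over all 15364 tested genes, of which 0.0% were called. The adjusted p was 0.9989 for every tested member, and 0 members had an unadjusted p under 0.05, against 147 of all tested genes (0.957%). DESeq2 called 4 genes (0.026%) and limma voom called 0, none of them a member. The median fitted log2 fold change of the tested members was -0.12, against -0.14 over all tested genes, with 27 negative and 18 positive. Over all tested genes, 57.2% of the fitted values were negative and 42.8% positive. With 2 against 2 libraries, an exact two-sided permutation test of a single value cannot go below 1 in 3.

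Both KO libraries lay on one side of both WT libraries in 11 tested members (24.4%), against 32.4% of all tested genes. Both lay above WT in 6 members, 13.3% against 13.2% of all tested genes, and these were Efnb1, Epha2, Plxna3, Plxnc1, Sema4d and Sema5a. Both lay below WT in 5 members, 11.1% against 19.2% of all tested genes, and these were Efnb2, Epha1, Plxnd1, Sema4c and Sema6a. The share above WT was close to that of all tested genes, and the share below WT was lower than theirs. With the filter at a mean of 5 CPM or more, the genotypes did not overlap in 11 of 34 members (32.4%), against 33.2% of all genes.

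**Figure D1:**
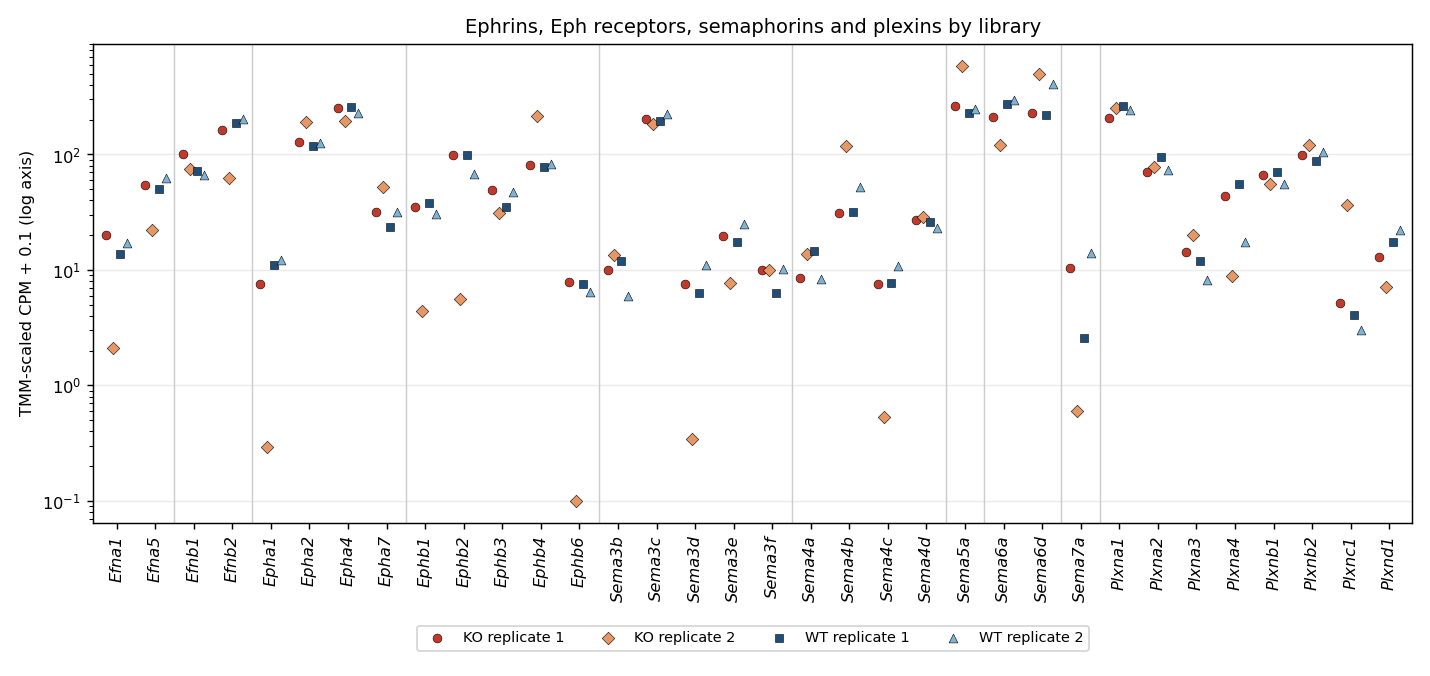
Level of the 34 members with a mean of 5 CPM or more in each library (TMM-scaled CPM + 0.1, log axis), ordered by family, 1 point per library. The points of KO replicate 1 and the WT libraries mostly lie together, while KO replicate 2 lies far below them for Ephb1, Ephb2, Ephb6, Epha1, Sema3d and Sema4c and above them for Ephb4, Sema4b, Sema5a and Plxnc1. Ephb6 had 0 counts in KO replicate 2 and is drawn at 0.1.

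Among the membrane-anchored ephrin-A ligands, 2 of 5 reached a mean of 5 CPM. Efna5, which binds EphA receptors and also EphB2, had 53.9 and 21.9 CPM in the KO libraries, against 50.2 and 61.9 CPM in the WT libraries. Efna1, a ligand of EphA2, had 19.9 and 1.99 CPM in the KO libraries, against 13.7 and 16.9 CPM in the WT libraries. In both genes KO replicate 2 was the lowest library, KO replicate 1 lay between or above the WT libraries, and the groups overlapped. The fitted log2 fold changes were -0.56 ± 0.53 (SE) for Efna5 and -0.48 ± 1.15 (SE) for Efna1. All 5 ephrin-A genes had a negative fitted value, 2 of them with 0 counts in KO replicate 2, against 57.2% negative over all tested genes. The KO libraries differed: relative to the WT mean (log2 of CPM + 0.5), the ephrin-A median was 0.14 in replicate 1 and -1.02 in replicate 2.

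The ephrin-B ligands, which span the membrane, had fitted values of opposite sign. Efnb2, the ligand of EphB4, had 162 and 63.0 CPM in the KO libraries, against 187 and 201 CPM in the WT libraries. KO was below WT in both libraries, at -0.26 in replicate 1 and -1.62 in replicate 2 (log2 of CPM + 0.5 minus the WT mean), and the fitted value was -0.79 ± 0.48 (SE), with an unadjusted p of 0.159. Efnb1, a broader EphB ligand encoded on the X chromosome, had 100.05 and 74.5 CPM in the KO libraries, against 71.5 and 66.7 CPM in the WT libraries. KO exceeded WT in both libraries, replicate 1 more than replicate 2, and the fitted value was 0.34 ± 0.30 (SE). Among the 6 members with both KO libraries above WT, Efnb1 was the single one with the larger difference in KO replicate 1. Per length of transcript (RPKM, the CPM per kilobase of exon), Efnb1 made up 36.7% and 56.2% of all ephrin signal in KO, against 29.5% and 25.8% in WT, and Efnb2 29.8% and 23.9% in KO, against 38.9% and 39.2% in WT. The summed RPKM of the 7 ephrins was 79.0 and 38.4 in KO and 70.2 and 74.8 in WT, so that the 2 KO libraries lay on either side of WT.

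Epha2 and Epha4 held most of the RPKM of the EphA receptors in each library. Epha4, which binds ephrins of both classes, had 252 and 194 CPM in the KO libraries, against 256 and 228 CPM in the WT libraries, and the groups overlapped. Epha2, a receptor of epithelial cells, had 129 and 189.6 CPM in the KO libraries, against 117 and 127 CPM in the WT libraries. The KO libraries lay above both WT libraries, at 0.09 and 0.64 on the log2 scale, and the fitted value was 0.39 ± 0.28 (SE) (unadjusted p of 0.228). The order of the pair was mixed: Epha4 had the higher RPKM in KO replicate 1 and in both WT libraries (31.3 RPKM for Epha4 and 27.7 RPKM for Epha2 in KO replicate 1), and Epha2 had the higher RPKM in KO replicate 2 (40.6 RPKM for Epha2 and 24.1 RPKM for Epha4).

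Epha7, better known from neural patterning, had 31.6 and 52.6 CPM in the KO libraries, against 23.6 and 31.9 CPM in the WT libraries. The highest library was KO replicate 2, and KO replicate 1 lay just below WT replicate 2, so the groups overlapped. Epha1, the founding Eph receptor, had 7.40 and 0.192 CPM in the KO libraries, against 10.9 and 12.1 CPM in the WT libraries. Each KO library was below WT, with 8 counts in KO replicate 2 against 465 in KO replicate 1 and 612 and 722 in WT, and the fitted value was -1.60 ± 1.63 (SE). Of the bases in Epha1 exons, 6.01% overlap the opposite-strand gene Zyx. Whether counting used strand is not stated in the labels or notes, and reads of the pair cannot be told apart there. Likewise, 0.71% of the exon bases of Ephb4 overlap Zan and 10.7% of those of Plxna1 overlap Gm26811. Zyx had 138 and 78.8 CPM in KO and 136 and 141 CPM in WT. The other 5 EphA genes, Epha3, Epha5, Epha6, Epha8 and Epha10, did not pass the low-count filter. Epha6 had 0 counts in each library, and the largest count among the other 4 was 17, for Epha3 in KO replicate 1.

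EphB receptors differed widely between the 2 KO libraries, with a median of 0.16 in replicate 1 and -2.85 in replicate 2 relative to the WT mean. Ephb2, a receptor of ephrin-B ligands with a miR-205-5p site, had 99.1 and 5.49 CPM in the KO libraries, against 99.3 and 67.7 CPM in the WT libraries. KO replicate 1 lay beside WT replicate 1, and KO replicate 2 was 15.2-fold lower than the WT mean. Ephb1 had 35.0 and 4.31 CPM in the KO libraries, against 37.6 and 30.7 CPM in the WT libraries, again with KO replicate 1 inside the WT range and KO replicate 2 7.91-fold lower than the WT mean. Ephb6, which lacks kinase activity, had 488 counts in KO replicate 1 and 0 in KO replicate 2, against 423 and 376 in WT. Taking 3 counts as the limit of a count of 0, it was at least 96.1-fold below the WT mean in KO replicate 2. That bound covers counting error only. Of all genes at 5 to 20 CPM in WT, the range that holds Ephb6, 8.16% had 0 counts in KO replicate 2, against 0.03% in KO replicate 1. The fitted values were -0.67 ± 1.21 (SE) for Ephb2 and -0.80 ± 0.99 (SE) for Ephb1.

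Ephb4, the receptor of ephrin-B2, differed the other way in the same library. It had 80.4 and 213 CPM in the KO libraries, against 77.5 and 82.7 CPM in the WT libraries. KO replicate 1 lay between the WT libraries and KO replicate 2 was 2.66-fold above the WT mean. The fitted value was 0.87 ± 0.50 (SE), with an unadjusted p of 0.14. Ephb3 had 49.6 and 31.2 CPM in the KO libraries, against 34.9 and 47.6 CPM in the WT libraries, and each genotype held 1 high and 1 low library. The summed RPKM of the 5 EphB genes was 39.7 and 51.7 in KO, against 37.2 and 36.4 in WT, while its make-up differed. Ephb4 gave 43.6% and 88.9% of the EphB signal in KO, against 44.9% and 48.9% in WT, and Ephb2 gave 19.8% and 0.84% in KO, against 21.2% and 14.8% in WT. In KO replicate 2 the EphB4 receptor was thus at its highest level and its ligand Efnb2 at its lowest, while in KO replicate 1 the log2 difference from the WT mean was 0.01 for Ephb4 and -0.26 for Efnb2.

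**Figure D2:**
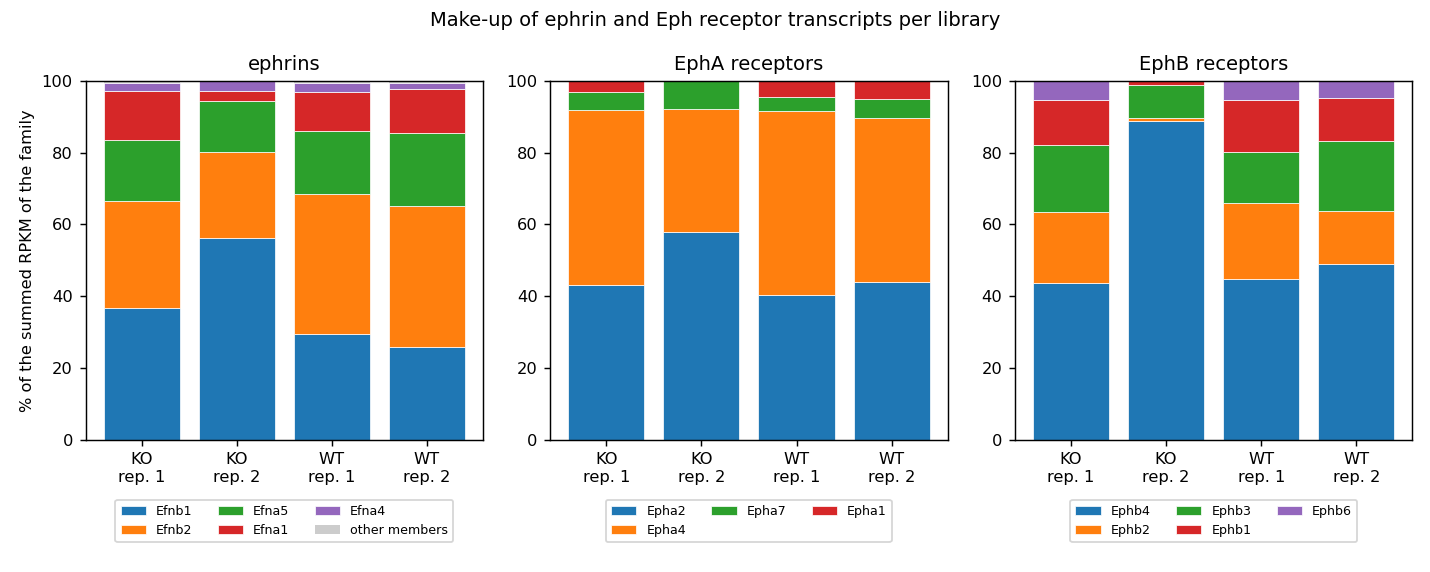
Share of each gene in the summed RPKM of the ephrins, EphA receptors and EphB receptors, 1 bar per library (KO replicates 1 and 2, then WT replicates 1 and 2). In KO replicate 1 the largest ephrin share is that of Efnb1 (36.7%), while in both WT libraries it is that of Efnb2 (38.9% and 39.2%). In KO replicate 2 Ephb4 takes 88.9% of the EphB signal and Efnb1 56.2% of the ephrin signal.

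Sema3c, a neuropilin ligand in the development of several organs, had the highest RPKM of the secreted class 3 semaphorins. It had 201 and 184 CPM in the KO libraries, against 195 and 223 CPM in the WT libraries. The libraries overlapped, and the fitted value was -0.12 ± 0.21 (SE). Sema3e, which binds plexin D1 without a neuropilin, had 19.5 and 7.67 CPM in the KO libraries, against 17.5 and 25.1 CPM in the WT libraries. KO replicate 2 was the lowest library and KO replicate 1 lay between the WT libraries. Sema3d, whose UTR holds an 8mer site, had 7.41 and 0.240 CPM in the KO libraries, against 6.21 and 10.8 CPM in the WT libraries, with 10 counts in KO replicate 2 and 466 in KO replicate 1. Sema3b and Sema3f, both described as growth-restraining semaphorins in epithelial tumours, differed more between the WT libraries than between the genotypes. Sema3b had 9.90 and 13.4 CPM in the KO libraries, against 11.9 and 5.80 CPM in the WT libraries, and Sema3f had 9.87 and 9.80 CPM in the KO libraries, against 6.19 and 10.2 CPM in the WT libraries. Their fitted values were 0.40 ± 0.79 (SE) for Sema3b and 0.27 ± 0.78 (SE) for Sema3f. Sema3a and Sema3g lay below 5 CPM on average. Sema3a, singled out after its values were seen, had 207 and 0 counts in KO, against 38 and 52 in WT, so the 2 KO libraries were the highest and the lowest of the 4.

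Transmembrane class 4 semaphorins showed no shared direction. Sema4b had 31.1 and 118 CPM in the KO libraries, against 31.4 and 51.9 CPM in the WT libraries, highest in KO replicate 2 and lowest in KO replicate 1. Sema4c, a ligand of plexin B2 with a miR-205-5p site, had 7.46 and 0.431 CPM in the KO libraries, against 7.56 and 10.7 CPM in the WT libraries. KO lay below WT in each library, although KO replicate 1 and WT replicate 1 were close, and the fitted value was -1.21 ± 1.46 (SE). The opposite-strand gene D430040D24Rik, with 12 and 0 counts in KO and 0 in each WT library, shares 7.27% of the exon bases of Sema4c. Sema4d, the ligand of plexin B1, had 27.1 and 28.7 CPM in the KO libraries, against 26.0 and 23.0 CPM in the WT libraries. KO was slightly above WT in each library, and the fitted value of 0.19 ± 0.44 (SE) was smaller than its error. Sema4a had 8.48 and 13.6 CPM in the KO libraries, against 14.6 and 8.30 CPM in the WT libraries, with each KO library inside the WT range. Sema4f, singled out after its values were seen, split both genotypes, with 11 and 252 counts in KO and 0 and 240 in WT.

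Sema5a, a transmembrane semaphorin with thrombospondin repeats and 2 miR-205-5p sites, had 263 and 587 CPM in the KO libraries, against 230.1 and 247 CPM in the WT libraries. The KO libraries lay above both WT libraries, replicate 1 at 0.14 and replicate 2 at 1.30 on the log2 scale. The fitted log2 fold change was 0.83 ± 0.41 (SE), with an unadjusted p of 0.098. By the mean RPKM of each genotype it ranked 8 of 50 members in KO and 11 of 50 in WT. The libraries had 14.1 and 31.4 RPKM in KO and 12.3 and 13.2 RPKM in WT.

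Class 6 semaphorins, transmembrane ligands of A-type plexins, held the member nearest to the threshold. Sema6a had 209 and 121 CPM in the KO libraries, against 275 and 295 CPM in the WT libraries. KO was below WT in both libraries, at -0.45 in replicate 1 and -1.23 in replicate 2 on the log2 scale, while WT replicate 1 was at -0.10 relative to WT replicate 2. The fitted log2 fold change was -0.79 ± 0.32 (SE), with an unadjusted p of 0.0562, the smallest of any member, and an adjusted p of 0.9989 over all tested genes. By the mean RPKM of each genotype it ranked 9 of 50 members in KO and 1 of 50 in WT. It had 23.8 and 13.8 RPKM in KO and 31.3 and 33.6 RPKM in WT. It was first in neither WT library: Epha4 was higher in WT replicate 1 (31.7 RPKM) and Sema6d in WT replicate 2 (38.7 RPKM). Sema6d had 228 and 497 CPM in the KO libraries, against 219.8 and 409 CPM in the WT libraries. In that gene replicate 2 was the higher library in both genotypes, and the fitted value was 0.21 ± 0.48 (SE). Sema7a, a lipid-anchored semaphorin that binds plexin C1 and integrins, had 10.2 and 0.503 CPM in the KO libraries, against 2.48 and 13.9 CPM in the WT libraries. WT replicate 1 was at -2.27 relative to WT replicate 2 on the log2 scale, so no direction could be read.

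A-type plexins are the receptors of class 6 and, with neuropilins, class 3 semaphorins. Plxna1, the A-type plexin with the highest RPKM, had 206 and 251 CPM in the KO libraries, against 262 and 241 CPM in the WT libraries. Plxna2, with 2 miR-205-5p sites, had 71.0 and 77.1 CPM in the KO libraries, against 95.6 and 73.6 CPM in the WT libraries, and Plxna4 had 43.4 and 8.75 CPM in the KO libraries, against 55.7 and 17.3 CPM in the WT libraries. In each of these 3 genes the libraries overlapped, and the WT libraries of Plxna4 differed by 1.65 on the log2 scale. Plxna3, also encoded on the X chromosome, had 14.3 and 19.9 CPM in the KO libraries, against 11.9 and 8.00 CPM in the WT libraries. Each KO library was above WT, at 0.50 and 0.97 on the log2 scale, and the fitted value was 0.78 ± 0.67 (SE). The antisense gene Plxna4os1 had 16 and 272 counts in KO and 0 in each WT library, and was singled out after its values were seen.

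B-type plexins, the receptors of class 4 semaphorins, overlapped between the genotypes. Plxnb2 had 98.2 and 122 CPM in the KO libraries, against 87.2 and 104 CPM in the WT libraries. Plxnb1 had 65.9 and 55.5 CPM in the KO libraries, against 70.1 and 55.2 CPM in the WT libraries. The fitted values were 0.20 ± 0.27 (SE) for Plxnb2 and -0.05 ± 0.32 (SE) for Plxnb1. Plxnb3 lay below 5 CPM on average.

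Plxnc1, the receptor of Sema7a, had the largest positive fitted value of the members, 2.57 ± 1.13 (SE), with an unadjusted p of 0.0722. It had 5.08 and 36.0 CPM in the KO libraries, against 3.96 and 2.94 CPM in the WT libraries. The KO libraries were at 0.50 in replicate 1 and 3.21 in replicate 2 on the log2 scale, both above WT. Plexin C1 is also known from myeloid cells. The level of immune markers differed between the same libraries. The summed level of the immune markers was 97.8 and 319.1 CPM in KO, against 66.9 and 148.9 CPM in WT, most of it Cd74 (71.9 and 289 CPM in KO and 56.1 and 136 CPM in WT). Ptprc, the marker of all leukocytes, had 2.69 and 25.0 CPM in KO and 3.32 and 3.33 CPM in WT. The myeloid markers were singled out, with Ptprc and Cd3e, after their values were seen. Lyz2, Csf1r and Itgam had their lowest counts in KO replicate 2, while Cd74, Ptprc and Cd3e had their highest level there. Lyz2 had 1260 and 57 counts in KO and 197 and 264 in WT, and Csf1r had 113 and 7 counts in KO and 104 and 233 in WT. Itgam had 60 and 13 counts in KO and 77 and 24 in WT. Adgre1 was nearly absent outside KO replicate 1, with 24 and 0 counts in KO and 0 and 1 in WT. The T cell marker Cd3e had 0 and 3.00 CPM in KO and 0.763 and 0.353 CPM in WT. The part of these markers in the Plxnc1 values was not tested.

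Plxnd1, the receptor of Sema3e and Sema4a that is best known from vessels, had 12.9 and 6.95 CPM in the KO libraries, against 17.4 and 22.2 CPM in the WT libraries. Below WT in each library, KO was at -0.60 in replicate 1 and -1.45 in replicate 2 on the log2 scale, with a fitted value of -0.997 ± 0.67 (SE). Ephrin-B2 and plexin D1 are also made by endothelial cells, whose markers were present. Of 10 endothelial markers 9 were analysed here (all except Pecam1), and 1, Cldn5, was at 0 in KO replicate 2. Their summed level was 174.6 and 95.0 CPM in KO, against 130.4 and 224.2 CPM in WT. Cdh5, which had the most counts of them, had 83.1 and 42.1 CPM in KO and 42.0 and 90.0 CPM in WT, and Kdr, singled out after its values were seen, had 12.3 and 0.0480 CPM in KO and 13.2 and 10.3 CPM in WT. Their part in the Efnb2 and Plxnd1 values was not tested.

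**Figure D3:**
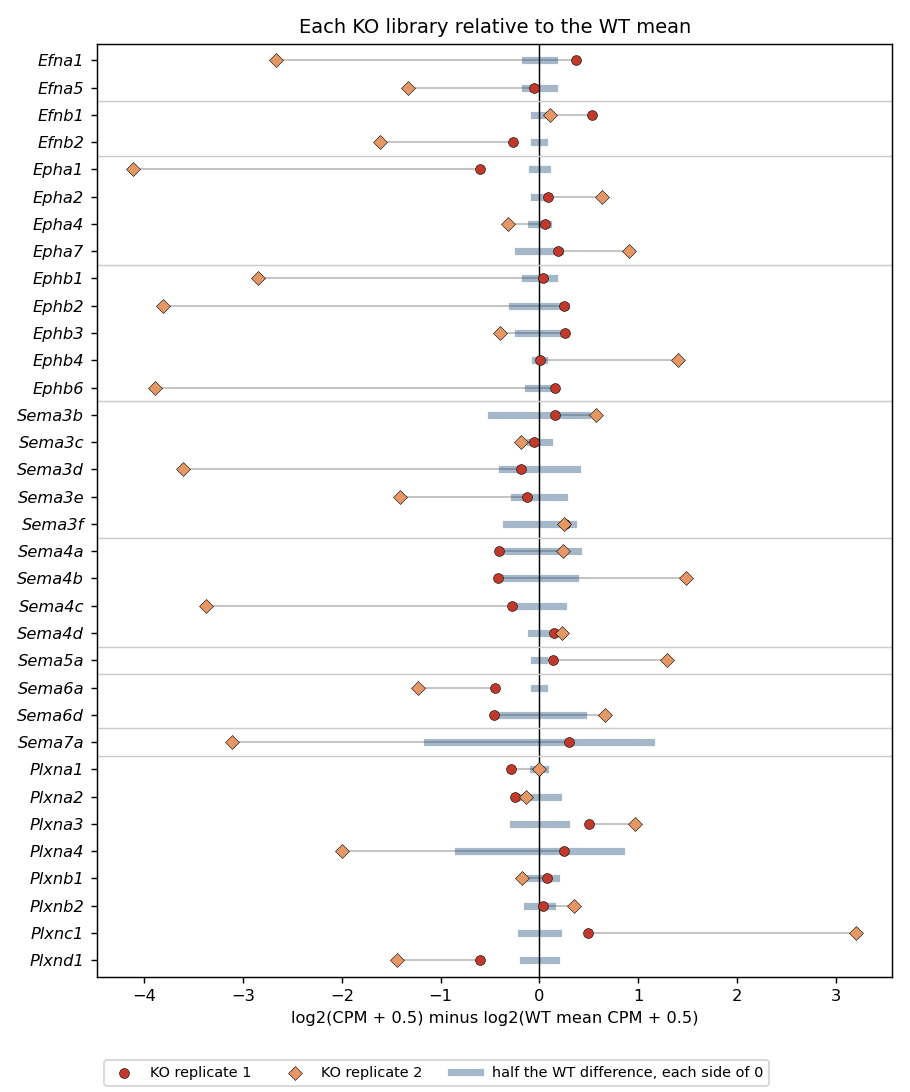
Difference of each KO library from the WT mean for the 34 members with a mean of 5 CPM or more (log2 of CPM + 0.5), with a grey line joining the 2 KO libraries. The blue band, centred on 0, is as wide as the difference between the 2 WT libraries, and KO replicate 2 lies outside it far more widely than KO replicate 1, reaching -4.12 for Epha1 and 3.21 for Plxnc1.

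Across the tested members the 2 KO libraries gave different pictures. In KO replicate 2, 18 of 45 members were at least 2-fold below the WT mean (40.0%, against 35.0% of all tested genes) and 6 were at least 2-fold above it (13.3%, against 13.5%). In KO replicate 1, 1 member was at least 2-fold below (4.82% of all tested genes were) and 1 was at least 2-fold above (2.0% of all tested genes). The WT libraries were at least 2-fold apart in 5 members (11.1%, against 15.3% of all tested genes). Relative to the WT mean, the median member was at 0.03 in KO replicate 1 on the log2 scale, and the median of all tested genes at -0.02. For KO replicate 2, the members' median was -0.32 and that of all tested genes -0.42.

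These shares differed with the level of a gene in WT. Among members at 5 to 20 CPM in WT, 7 of 11 were at least 2-fold lower in KO replicate 2 (63.6%), against 44.9% of all genes at that level. At 20 to 100 CPM these were 5 of 14 members (35.7%), against 21.8% of all genes, and at 100 CPM or more 2 of 8 members (25.0%), against 4.5% of all genes. Those 2 were Efnb2 and Sema6a. At 1 to 5 CPM the order was the reverse, with 1 of 6 members (16.7%) against 63.6% of all genes. At least 2-fold higher in KO replicate 2 were 2 of 6 members at 1 to 5 CPM (33.3%, against 13.6% of all genes), 0 of 11 at 5 to 20 CPM (18.0% of all genes), 2 of 14 at 20 to 100 CPM (14.3%, against 557 of 3474 genes) and 1 of 8 at 100 CPM or more (12.5%, against 6.4%). With so few members at each level, these shares are descriptions. No count was found in KO replicate 2 for 7 of 45 tested members, against 3418 of all 15364 tested genes. Ephb6 was 1 of the 7 members, and the other 6 had a mean under 5 CPM. The 11 tested members under 5 CPM had means of 0.268 to 3.33 CPM, and none of them separated the genotypes.

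**Figure D4:**
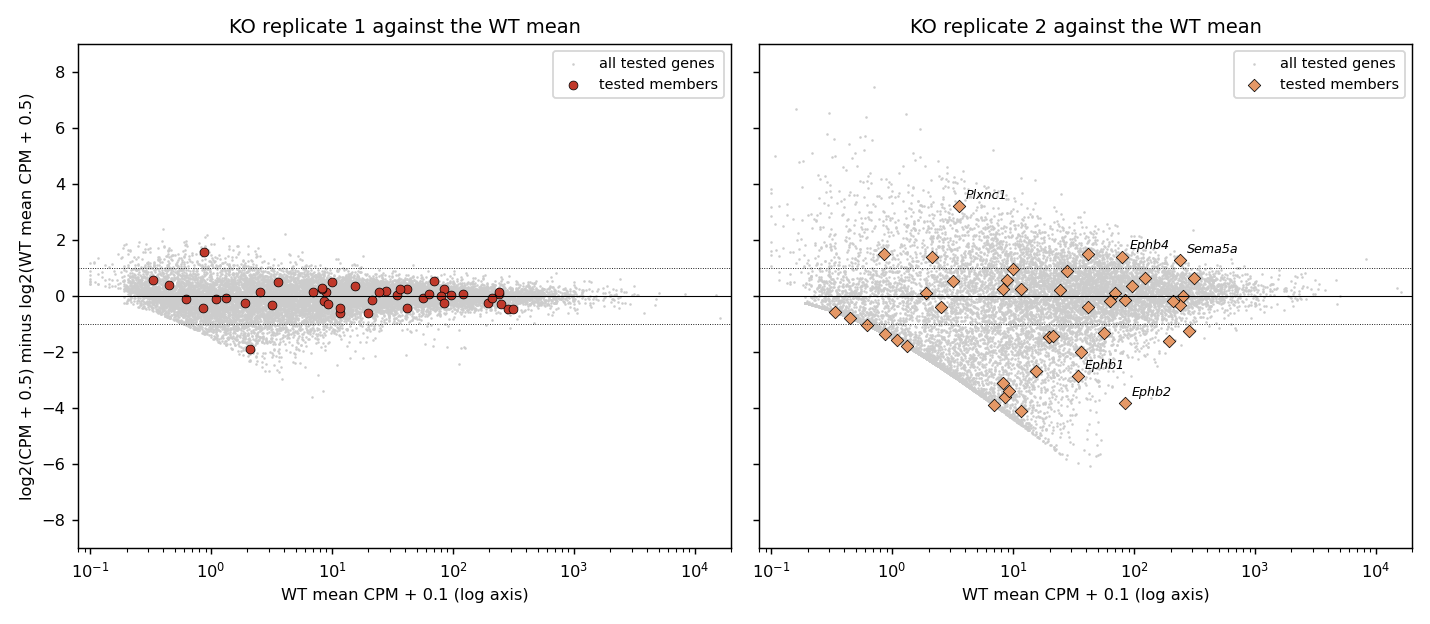
Difference from the WT mean (log2 of CPM + 0.5) against the WT mean level (CPM + 0.1, log axis) for KO replicate 1 on the left and KO replicate 2 on the right, with all tested genes in grey and the tested members as coloured points. Dotted lines mark a 2-fold difference, with 18 members below and 6 above in KO replicate 2, and 1 below and 1 above in KO replicate 1.

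With KO replicate 1 left out, so that KO replicate 2 was the single KO library, 17 of 45 members were called (37.8%), against 34.9% of all 16392 genes tested. Here the lone KO library is assumed to vary like the WT pair. Of the 17, 5 were higher, against 12.4% of all genes (Epha2, Ephb4, Plxnc1, Sema4b and Sema5a), and 12 were lower, against 22.5% of all genes (Efna1, Efna5, Efnb2, Epha1, Ephb1, Ephb2, Ephb6, Plxnd1, Sema3d, Sema4c, Sema6a and Sema7a). With KO replicate 2 left out, 0 of 46 members and 0.0% of all tested genes were called, and 25 fitted values were positive and 21 negative. KO replicate 2 also had the fewest genes detected, and the part of that in these calls was not tested.

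Of the 6 members with a miR-205-5p site, 5 had a negative and 1 a positive fitted value. The value was negative in Ephb2, Plxna2, Plxnd1, Sema3d and Sema4c and positive in Sema5a, none past the test. Their median was -0.84, against -0.05 for the other tested members. Over all tested protein-coding genes the median was 0.00 with a site and -0.13 without. In KO replicate 1 the 6 genes had a median of -0.22 relative to WT, with Ephb2 at 0.25 and Sema5a at 0.14 above 0 and the others from -0.60 for Plxnd1 to -0.19 for Sema3d. In KO replicate 2 their median was -2.41, against -0.18 for the members without a site. Over all tested protein-coding genes the median in that library was -0.16 with a site and -0.44 without. Sema4d, with a site only in another transcript, was counted as without a site. The values of the members with a site rest on 6 genes and were not tested as a group.

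Other genes of the pathway were taken from lists of 88 genes made from general knowledge, of which 77 were analysed here and 74 tested. Of these 0 passed the test over all genes, 37 had positive and 37 negative fitted values, and the median was -0.01. Among 7 co-receptors of semaphorins, Met, the hepatocyte growth factor receptor that pairs with B-type plexins, had the most counts, at 566 and 827 CPM in the KO libraries, against 527 and 511 CPM in the WT libraries. The neuropilins, partners of class 3 semaphorins that were singled out after their values were seen, were low in KO replicate 2: Nrp1 had 36.5 and 8.63 CPM in the KO libraries, against 34.6 and 45.9 CPM in the WT libraries, and Nrp2 had 66.7 and 14.5 CPM in the KO libraries, against 64.9 and 61.0 CPM in the WT libraries. Plexin effectors were split, 10 positive and 12 negative, and Mical2, a flavoprotein that acts on actin, had the most counts, at 1577 and 1503 CPM in KO and 1258 and 1395 CPM in WT. Both KO libraries were below both WT libraries in 8 of these 22 effectors (36.4%, against 19.2% of all tested genes) and above in 2 (9.1%, against 13.2%).

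Among collapsin response mediator proteins, which act downstream of Sema3a, Dpysl2 had an unadjusted p of 0.0288, with 119 and 240.4 CPM in the KO libraries, against 60.9 and 85.6 CPM in the WT libraries and a fitted log2 fold change of 1.29 ± 0.43 (SE). Dpysl3, with the most counts of them, had 221 and 216 CPM in KO and 187 and 179 CPM in WT. Eph effectors had 14 positive and 9 negative values, and Abl2, a cytoskeletal tyrosine kinase, had the most counts, at 337 and 429 CPM in KO and 341 and 373 CPM in WT. Partners of ephrin reverse signalling included Sdcbp, which encodes syntenin and binds the tail of ephrin-B, with the most counts of its list, at 608 and 719 CPM in KO and 515 and 619.5 CPM in WT. Among 11 genes for shedding and dephosphorylation, Ptprj, a receptor phosphatase, had 272 and 409 CPM in the KO libraries, against 180.1 and 177 CPM in the WT libraries and an unadjusted p of 0.0177. Plxdc2, named for its plexin domain, had 429 and 346 CPM in KO and 373 and 427 CPM in WT. Dpysl2 and Ptprj did not pass over all genes, with an adjusted p of 0.9989 each by edgeR.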

How the data were processed

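Each library had 1 deposited file of raw counts, in whole reads for every Ensembl gene. The authors aligned with TopHat2 (2.02), counted with HTSeq and used NCBIM37 (mm9), per the submitters' processing notes. RNA was extracted with PicoPure and libraries were made with NuGEN and Illumina protocols, per the labels' protocols. The 5 summary lines that follow the 34615 genes of a file were left out of library sizes. Reads outside any feature were 57.85% and 61.52% in KO and 61.4% and 57.59% in WT. Symbols, exonic lengths and 3' UTRs came from GENCODE M21 (GRCm38), matched on gene identifiers (86.9% of rows). Gene coordinates are therefore not given, apart from those of the printed sequences in GRCm38.

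Genes were tested with edgeR 4.0.16 (R 4.3.3): filterByExpr, scaling by TMM and a quasi-likelihood test between the genotypes, with no replicate block, Benjamini-Hochberg adjusted over all tested genes. CPM are TMM-scaled, RPKM are CPM per kilobase of merged exons, and the SE of a fold change was derived from its F statistic. Single-library differences used log2(CPM + 0.5). Alternatives used DESeq2 1.42.0 and limma 3.58.1. Members with a mean of 5 CPM or more, or an unadjusted p under 0.05, are given with values. Of partner and marker lists, the most abundant gene and those with an unadjusted p under 0.05 are named, and exceptions are stated. Members, lists and rules were chosen with earlier results of these data known. Of the fibroblast list, 9 of 10 genes were analysed (Fbn1 had the most counts, at 399 and 487 CPM in KO and 384 and 407 CPM in WT), and 1, Dcn, had an unadjusted p under 0.05 (153 and 221 CPM in KO and 89.5 and 106 CPM in WT, p of 0.0221). The gene with the most counts was Epcam in the luminal list (460.3 and 651 CPM in KO and 425 and 575 CPM in WT), Rgs5 in the pericyte list (76.0 and 39.5 CPM in KO and 53.7 and 130.5 CPM in WT) and Mbp in the nerve and Schwann list (101 and 50.9 CPM in KO and 72.5 and 95.2 CPM in WT). Of the immune list, 1 marker is not reported here.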

Additional observations from a re-analysis of the deposited data

How the results depend on the processing

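The count of 0 called members was the same under DESeq2, limma voom, upper quartile and total count scaling, both low-count filters and the replicate block. All 34 named members kept the sign of their fold change under those 7 settings. DESeq2 called 4 genes in all. With the replicate block 0 genes were called. The numbers were not taken as pairs, because the labels give no shared animal, batch or day. Deviations of same-numbered libraries from their genotype mean had an r of 0.02 over all tested genes. That value cannot decide on pairing, because KO replicate 2 stood apart from the other libraries. The median of the tested members was -0.12, and -0.13 with the replicate block. Leaving out 1 library at a time gave 0 to 5724 genes called, 0 to 17 members called, and 21 to 39 members with libraries that did not overlap, where fewer libraries make overlap rarer by construction. These were 86.7% of tested members without KO replicate 1 (87.2% of all tested genes), 50.0% without KO replicate 2 (61.4%), 45.7% without WT replicate 1 (55.9%) and 65.2% without WT replicate 2 (55.6%). Restricting sites to the 8mer gave 2 members, and any 6mer match gave 21.

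Leaving out 1 library at a time turned the sign of 15 named members. The fitted values ran from -2.948 to 0.382 for Efna1, -0.322 to 0.065 for Epha4, -2.987 to 0.038 for Ephb1, -3.930 to 0.250 for Ephb2, -0.408 to 0.268 for Ephb3, -11.505 to 0.171 for Ephb6, -0.367 to 0.007 for Plxna2, -2.063 to 0.591 for Plxna4, -0.206 to 0.136 for Plxnb1, -0.026 to 1.001 for Sema3b, -0.050 to 0.668 for Sema3f, -0.427 to 0.406 for Sema4a, -0.419 to 1.491 for Sema4b, -0.457 to 0.722 for Sema6d and -4.024 to 1.110 for Sema7a. The lone library of a group is assumed there to vary like the others, and the cause was not tested. The value of -11.505 for Ephb6 is a fit to 0 counts in KO replicate 2, so its size was not measured. The bound given above for that library was at least 96.1-fold below the WT mean. Under DESeq2, Sema6a and Plxnc1 reached an unadjusted p under 0.05, as did 542 of all 15364 tested genes. With edgeR and no low-count filter, Sema6a, Plxnc1 and Sema5a did, as did 427 of 20652 genes. Sema6a did so under limma voom (141 of 15364 genes) and in edgeR with the replicate block (79 of 15364 genes). For low members, a count of 0 in KO replicate 2 allows up to 0.0719 CPM, for counting error only. Of all genes at 1 to 5 CPM in WT, 40.56% had 0 counts in KO replicate 2, against 0.59% in KO replicate 1. The cause of these zeros was not tested.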
